A study of Mus musculus with 16 samples.

Results

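The 9 Pax genes, Pax1 to Pax9, were examined for trimethylation of lysine 27 of histone H3 (H3K27me3) in mouse splenic B cells. All 9 were found by symbol among the 21631 protein-coding genes of chromosomes 1 to 19 and X, and none was left out. H3K27me3 was mapped with ChIP-seq, the sequencing of DNA recovered with an antibody to the mark, in B cells of C57BL/6 mice 6 to 8 weeks old, purified with CD43 microbeads. The cells were kept for 48 hours with 2 ng/mL BAFF and 2 ng/mL IL-4, cytokines that sustain B cells, in all groups. The mice were WT or Ifih1/Rigi/cGAS triple mutant, that is, mutant in 3 sensors of cytosolic nucleic acids, and the cells received the solvent DMSO or 1 µM GSK343, an inhibitor of the methyltransferase EZH2. The labels list 2 ChIP and 2 input samples per combination, and 1 deposited list of broad peaks stands for each: WT DMSO and WT GSK343, and the same pair for the mutant. The peak names refer to pooled duplicates, so no list has a replicate, and no difference below could be tested against a spread between samples. The mutant peak names begin with a tag ending in 1, which leaves it uncertain whether both replicates entered those lists. The labels do not say what lesions the mutant alleles carry or whether cells of several mice were pooled.

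Pax proteins are transcription factors that bind DNA through a paired domain, and each directs the formation of particular tissues in the embryo. They form 4 groups by structure: Pax1 and Pax9, Pax2, Pax5 and Pax8, Pax3 and Pax7, and Pax4 and Pax6. Pax5 is the member that commits lymphoid progenitors to the B cell lineage and holds mature B cells in it, while the others serve tissues such as skeleton, kidney, muscle, pancreas and eye. H3K27me3 is deposited by Polycomb repressive complex 2, whose catalytic subunit is EZH2, and typically lies in broad domains over developmental genes that a cell does not use. Peaks describe chromatin and not expression, so whether Pax5 was transcribed and the other members were silent was not measured by these lists.

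For each gene a window was taken, the gene body with 20 kb added on each side, and the share of its bases under a peak (the covered share) was computed in each list. The window of Pax5 was nearly free of peaks in every list, and its 186 kb gene body (chromosome 4, 44524748 to 44710694) held no peak in any of the 4. The other 8 windows had a median covered share of 34.0% in WT DMSO and 44.5% in mutant DMSO, and of 21.4% in WT GSK343 and 16.7% in mutant GSK343. Over all protein-coding genes the median share was 1.45% in WT DMSO, 3.25% in mutant DMSO and 0% in both GSK343 lists.

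CpG islands, stretches rich in CG dinucleotides, are where Polycomb complexes typically bind, so promoters of members with and without peaks are shown. The 250 bases before the start site are printed for these 3 relatives, for Pax2 at the first of its 3 listed starts, and for Pax6, whose window was the most covered under GSK343. They are from RefSeq on GRCm38.p6, read 5′ to 3′ on the gene's strand, with each CG in capitals, a motif that reads the same on both strands. The positions are chr4:44710695-44710944 (minus strand) for Pax5, chr19:44746351-44746600 (plus) for Pax2, chr2:24475600-24475849 (minus) for Pax8 and chr2:105668646-105668895 (plus) for Pax6.
Pax5: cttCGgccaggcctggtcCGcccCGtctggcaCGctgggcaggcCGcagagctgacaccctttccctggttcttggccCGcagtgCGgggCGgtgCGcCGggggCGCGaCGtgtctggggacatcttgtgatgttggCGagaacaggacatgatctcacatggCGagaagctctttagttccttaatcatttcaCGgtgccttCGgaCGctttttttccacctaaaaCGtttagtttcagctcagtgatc
Pax2: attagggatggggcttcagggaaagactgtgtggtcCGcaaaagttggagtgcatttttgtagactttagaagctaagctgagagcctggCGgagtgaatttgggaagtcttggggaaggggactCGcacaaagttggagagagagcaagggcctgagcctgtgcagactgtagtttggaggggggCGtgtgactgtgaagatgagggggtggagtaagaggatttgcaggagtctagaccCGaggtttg
Pax8: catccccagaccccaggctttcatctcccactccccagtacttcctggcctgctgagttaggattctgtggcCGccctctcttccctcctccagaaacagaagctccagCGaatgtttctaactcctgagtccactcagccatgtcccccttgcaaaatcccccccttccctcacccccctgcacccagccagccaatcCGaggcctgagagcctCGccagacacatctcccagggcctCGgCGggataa
Pax6: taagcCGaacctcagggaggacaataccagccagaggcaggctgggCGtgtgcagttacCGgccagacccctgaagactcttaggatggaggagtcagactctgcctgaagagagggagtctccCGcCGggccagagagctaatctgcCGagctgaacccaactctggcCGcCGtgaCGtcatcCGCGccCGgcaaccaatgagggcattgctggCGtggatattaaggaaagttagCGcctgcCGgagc

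The stretch before Pax5 held 19 CG dinucleotides, against 5 for Pax2, 6 for Pax8 and 15 for Pax6. Counted over 300 bases, with 50 after the start included, the Pax5 promoter held 23, as many as the promoter at the second start of Pax2, and 29.3% of the 21045 listed promoters of protein-coding genes held as many or more. The median over those promoters was 13. No base of the Pax5 promoter lay under a peak in any list, whereas the Pax2 and Pax8 promoters, with 7 CG each, were covered in full in both DMSO lists. At its 2 other starts Pax2 held 23 and 30, and those were covered in full in all 4 lists. The number of CG therefore did not separate Pax5 from the covered promoters. Under GSK343 the only promoters covered in part were 2 with 7 CG, the first start of Pax2 in WT cells and that of Pax8 in mutant cells.

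The promoter table matched 7 of the 9 genes and listed 10 starts for them; Pax3 and Pax4 had no entry. A peak overlapped 9 of the 10 promoters in each list, all but that of Pax5. Among all listed promoters of protein-coding genes the share with a peak was 20.3% under DMSO and 13.6% under GSK343 in WT cells, and 22.2% and 12.6% in mutant cells. Each of the 10 held at least 7 CG in its 300 bases. Among the 13654 promoters of protein-coding genes with at least that number, 25.1% had a peak under DMSO and 19.1% under GSK343 in WT cells. In mutant cells 26.3% and 17.7% had one. Under DMSO each of the 9 Pax promoters with a peak was covered in full in both genotypes. Under GSK343, 8 of the 10 were covered in full in each genotype. The exceptions were the first start of Pax2 in WT cells, with 56.7% of its bases under a peak, and the start of Pax8 in mutant cells, with 85.7%.

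**Figure D1:**
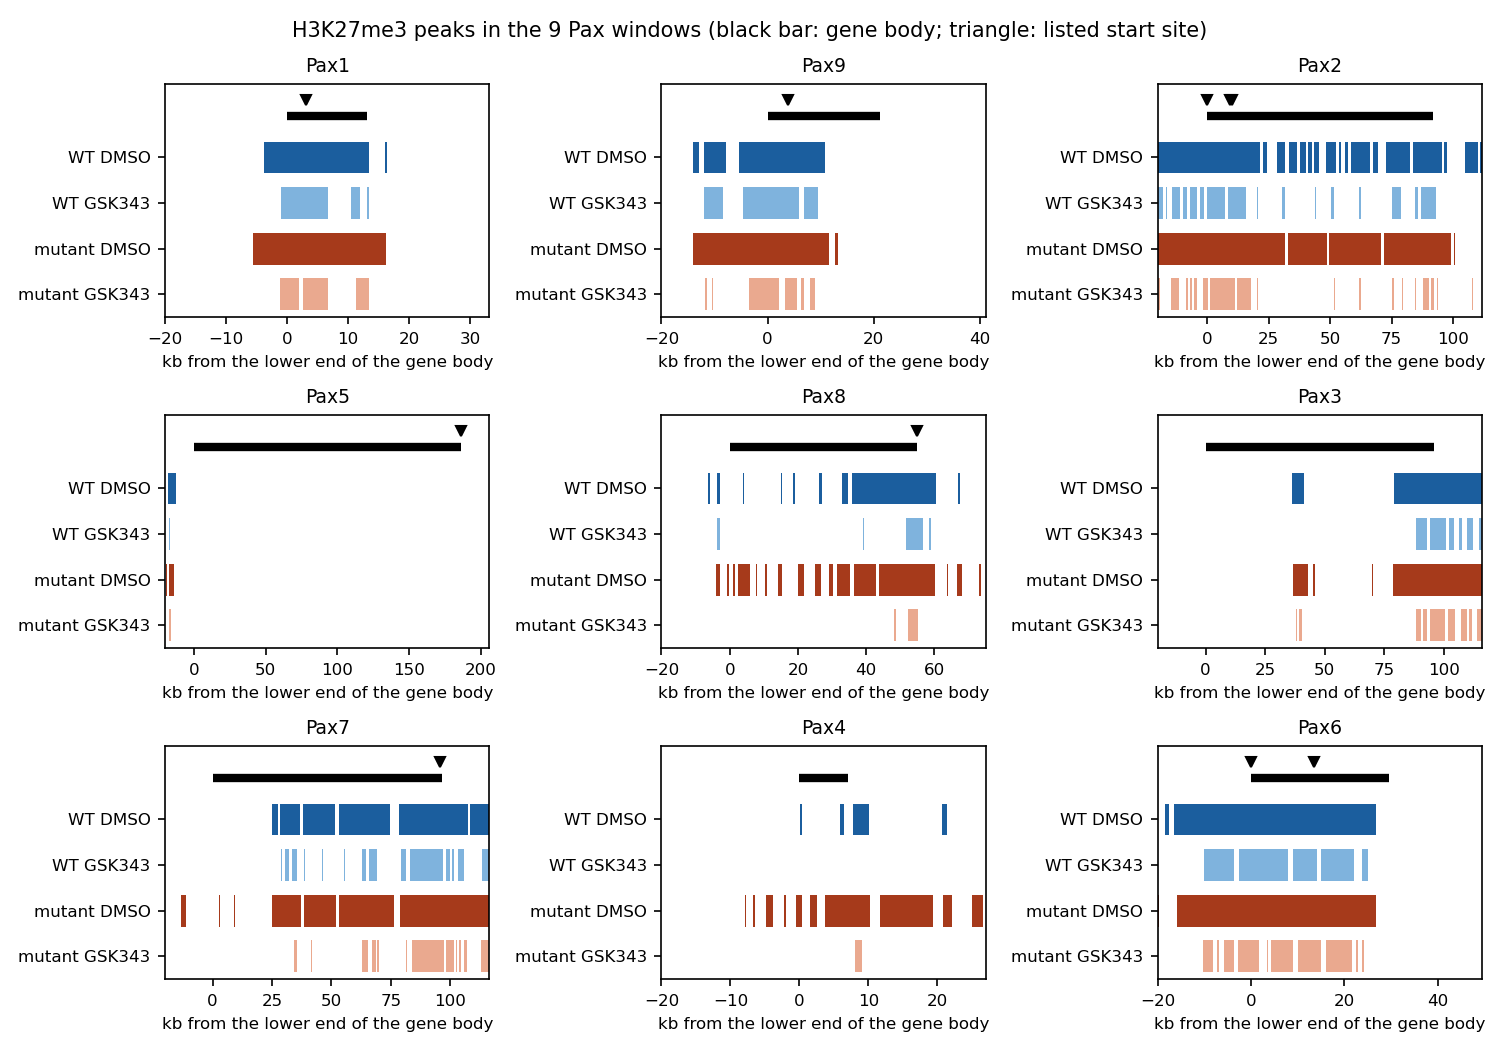
Peaks of the 4 lists (rows) in each of the 9 Pax windows; the horizontal axis is the distance in kb from the lower-coordinate end of the gene body, the black bar is the body and triangles are listed start sites. The bodies of Pax1, Pax2, Pax6 and Pax7 lie largely under DMSO peaks, which at Pax2 in WT cells are many and separate. GSK343 peaks cover less of these bodies, and the body of Pax5 is empty in all 4 rows.

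Pax5, the B cell member, was the least covered of the 9 in both DMSO lists. Its covered share was 2.31% under DMSO and 0.216% under GSK343 in WT cells, and 1.94% and 0.681% in mutant cells. All of it came from 1 or 2 peaks past the 3′ end of the gene, in a part of the window where the table lists no gene. In WT DMSO this was a peak of 5222 bp at 44506829 to 44512050 with a fold of 3.07, where the fold is the authors' ratio of ChIP over background for a peak. The WT GSK343 peak there was 489 bp wide. The mutant lists each had 2 peaks there, the wider being 3504 bp under DMSO and 1334 bp under GSK343.

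The nearest peak to the Pax5 start was 199 kb away under DMSO and 202 kb under GSK343 in WT cells, and 200.03 kb and 201 kb in mutant cells. Beyond the start the first peak lay 372 kb from the body in both DMSO lists, 373 kb in WT GSK343 and 384 kb in mutant GSK343. Under DMSO Pax5 thus sat in a stretch without peaks, 571 kb long in WT and 572 kb in mutant cells, together with Zcchc7, Grhpr, Zbtb5 and Polr1e. Of the gaps between neighbouring peaks, 2.27% (897 of 39443) were at least this long in WT DMSO and 1.60% (797 of 49747) in mutant DMSO. These shares count gaps and not their length. Long gaps hold more of the genome than their number shows, so the shares do not give how rarely a gene lies in one. Absence of peaks over a long gene was not unusual: of the 1092 protein-coding genes at least as long as Pax5, 30.0% had no peak over the body in WT DMSO, 27.2% in mutant DMSO and 25.4% in all 4 lists. The lncRNAs Gm12462 and 5730488B01Rik and the microRNA gene Mir5120 lie within the Pax5 body, so their lack of peaks follows from that of Pax5.

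Pax2 and Pax8, the relatives of Pax5, were both covered. Pax2 (chromosome 19, 44746601 to 44838269), a regulator of kidney, eye and ear formation, had the largest covered share of the family under DMSO, 76.7% in WT and 88.1% in mutant cells. Under GSK343 its share was 32.4% in WT and 25.2% in mutant cells. Its widest DMSO peak started upstream of the window, covered the upstream flank in full and ran into the gene. It was 51.7 kb long in WT cells and 62.0 kb in mutant cells, of which 41.5 kb and 51.7 kb lay inside the window. The WT DMSO peak was number 15 by width of the 39495 in its list. The lncRNA Gm35610, upstream of Pax2, lay entirely under it. The rest of the gene held separate, shorter peaks in WT DMSO. The window held 18 peaks in WT DMSO and 18 in WT GSK343, with median widths of 2348.5 and 1489 bp. In mutant cells it held 5 under DMSO and 21 under GSK343.

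Pax8 (chromosome 2, 24420551 to 24475599), needed for the thyroid follicular cell, was covered over 31.9% of its window in WT and 44.2% in mutant cells under DMSO. Under GSK343 the shares were 7.03% in WT and 4.23% in mutant cells. What was left lay mainly at the start site, under a peak of 5005 bp in WT and 3101 bp in mutant cells. The WT peak there had a fold of 2.97, and with a fold of at least 3 the WT GSK343 share was 0.928%. Psd4, the protein-coding neighbour past its 3′ end, had no peak over its body in any list. Under DMSO the 3 genes of this group thus covered both ends of the family's range, from Pax5 to Pax2.

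Pax1 and Pax9, which act in the sclerotome, the pharyngeal pouches and, for Pax9, the teeth, had short windows with the peaks around the start. The body of Pax1 (chromosome 2, 147361930 to 147375049) was covered in full under DMSO in both genotypes, and over 62.1% in WT GSK343 and 58.7% in mutant GSK343. Its window share was 33.0% under DMSO and 17.6% under GSK343 in WT cells, and 41.1% and 17.1% in mutant cells. The 2 genotypes thus differed at Pax1 by 8.13 percentage points under DMSO and by less than 1 point under GSK343.

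Pax9 (chromosome 12, 56691693 to 56712824) had a window share of 35.0% under DMSO and 27.9% under GSK343 in WT cells, and 43.0% and 16.4% in mutant cells. As a ratio of GSK343 to DMSO share, the WT value was the highest of the family. The peaks lay in the upstream flank and the first part of the gene, over the lncRNA Gm15524, and the downstream flank held none in any list. The closest peak in the window to Slc25a21, a mitochondrial carrier gene whose end overlaps that of Pax9, under DMSO was 10.1 kb from it in WT and 7.62 kb in mutant cells.

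Pax3 and Pax7 set up muscle progenitors, Pax3 also the neural crest and Pax7 the satellite cells of adult muscle. Their bodies have nearly the same length, 95.9 and 96.5 kb, but different shares. Pax3 (chromosome 1, 78101267 to 78197136) was covered over 31.0% of its window under DMSO and 14.2% under GSK343 in WT cells, and 32.5% and 15.4% in mutant cells. Most of the covered part was the upper end of the gene and the flank above it, under 1 DMSO peak, 42.8 kb long in WT and 43.4 kb in mutant cells, that also spanned the lncRNA Gm33152 and the small gene Gm2102. Inside the gene a DMSO peak of 5133 bp in WT and 5992 bp in mutant cells lay apart from it, and mutant DMSO had 2 more, of 473 and 529 bp. The lower flank held no peak in any list.

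Pax7 (chromosome 4, 139737059 to 139833530) was covered over 60.4% under DMSO and 25.1% under GSK343 in WT cells, and 65.3% and 21.2% in mutant cells. Its peaks ran from the upstream flank, over the divergent lncRNA Gm46873, through the 5′ part of the gene and thinned out before its 3′ end. The widest, at the start, was 29.0 kb in WT and 41.0 kb in mutant cells under DMSO. Under GSK343 a peak over the start site was 13.6 kb wide in WT and 13.4 kb in mutant cells, the widest GSK343 peak in any Pax window of either genotype. At both genes the genotypes gave values within 5 percentage points of each other under each treatment when all peaks were used. With a fold of at least 3 the Pax7 shares under DMSO were 33.2% in WT and 53.3% in mutant cells. With that fold the Pax3 shares under GSK343 were 13.8% and 8.09%.

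Pax4 and Pax6 both act in the endocrine pancreas, and Pax6 is also a main regulator of eye and brain. Their shares lay far apart. Pax6 (chromosome 2, 105668896 to 105698410) was covered over 63.3% of its window under DMSO and 43.9% under GSK343 in WT cells, and 61.8% and 37.5% in mutant cells. A single DMSO peak, of 43.1 kb in WT and 42.7 kb in mutant cells, held both listed starts and the lncRNA Paupar. It ended 1.75 kb in WT and 1.69 kb in mutant cells short of Elp4, a gene of the Elongator complex whose 3′ end overlaps that of Pax6, and Elp4 had no peak over its body in any list.

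Pax4 (chromosome 6, 28442334 to 28449340), the smallest gene of the family, held no DMSO peak with a fold of 3 or more. Its window share was 8.63% under DMSO and 0% under GSK343 in WT cells, and 44.9% and 2.34% in mutant cells. The 4 peaks of WT DMSO had folds of 2.26 to 2.60, and the 10 of mutant DMSO had folds of 2.16 to 2.94; the single peak of mutant GSK343 had a fold of 3.60 and a width of 1102 bp. With a fold of at least 3 both DMSO shares were 0%, so all of the 36.3 percentage points between the genotypes came from peaks below that fold. Arf5, an ADP-ribosylation factor gene in the same window, had no peak in any list, and Fscn3, of the actin-bundling fascins, was covered over 14.3% in mutant DMSO and 0% in the other lists.

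**Figure D2:**
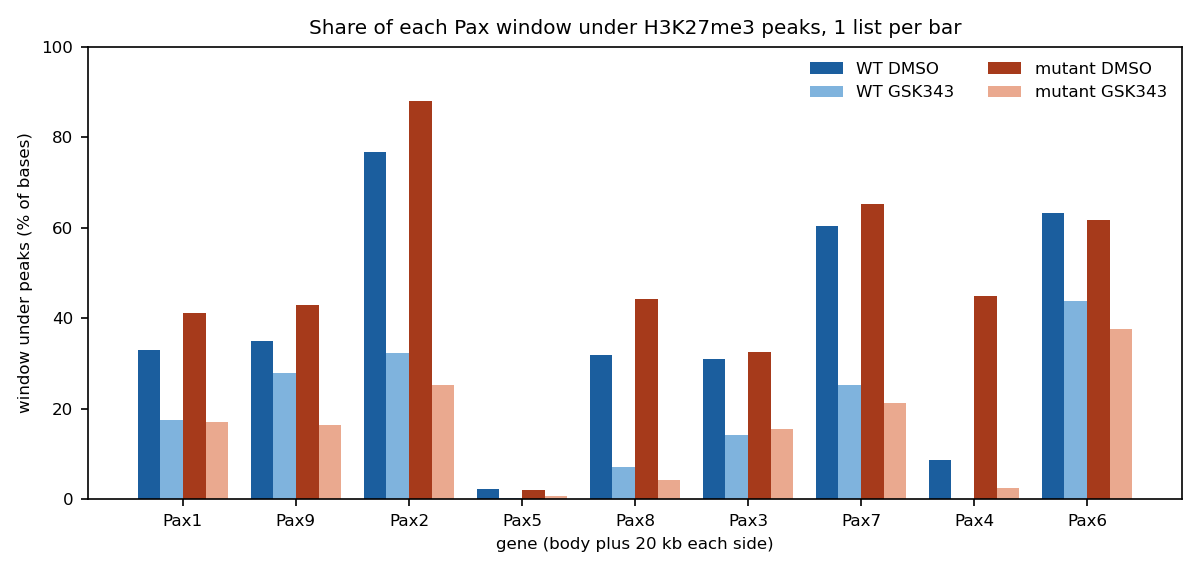
Covered share of each Pax window (percent of bases, vertical axis) in the 4 lists, 1 bar per list, with genes ordered by structural group. Pax2, Pax6 and Pax7 exceed 60% under DMSO in both genotypes, Pax5 stays under 3% in every list, and each GSK343 bar is lower than the DMSO bar of its genotype.

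The family was then set beside all protein-coding genes. Under DMSO 9 of 9 windows held a peak in each genotype, where 59.6% of all windows did in WT and 64.8% in mutant cells, and 8 of 9 gene bodies did, where 31.8% of all bodies did in WT and 34.6% in mutant cells. Under GSK343 the count was 8 of 9 in WT, where the background was 37.3%, and 9 of 9 in mutant cells, where it was 34.1%; 7 of 9 bodies had one, where 21.4% did in WT and 20.3% in mutant cells. A peak anywhere in a window is common, and by that measure even Pax5 counts as marked. With at least 30% of the window covered, 7 of 9 members counted in WT DMSO against 7.72% of all genes, and 8 of 9 in mutant DMSO against 12.8%. Under GSK343 only Pax2 and Pax6 in WT (background 1.29%) and Pax6 in mutant cells (0.911%) had as much. At least 10% of the window was covered at 7 of 9 members in WT DMSO against 25.0% of all genes, at 8 of 9 in mutant DMSO against 34.0%, and under GSK343 at 6 of 9 against 7.28% in WT and 5.83% in mutant cells.

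By rank, 99.5% of protein-coding genes had a lower share than Pax2 in WT DMSO, 98.7% than Pax6, 98.4% than Pax7 and between 92.7% and 94.0% than Pax1, Pax3, Pax8 and Pax9. Pax4 stood above 72.5% and Pax5 above 54.6%. Under GSK343 the order changed at the top, with Pax6 above 99.6% of genes in WT and 99.5% in mutant cells. Pax5 was thus ordinary among protein-coding genes, while 7 of its relatives stood above at least 92.7% of them in WT DMSO. Windows of different length are compared in these ranks.

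The question of EZH2 inhibition was addressed by the share of DMSO-covered bases that a GSK343 peak of the same genotype also covered, called the kept share. Every Pax window had a lower covered share under GSK343 than under DMSO in both genotypes, which is no particular result, since 99.6% of protein-coding genes with a DMSO peak in WT and 99.9% in mutant cells did as well. Summed over the 9 windows, peaks covered 348 kb in WT DMSO and 160.3 kb in WT GSK343, a ratio of 0.461. In mutant cells they covered 408 kb and 134.9 kb, a ratio of 0.331. The same ratios over the whole lists were 0.250 and 0.126, so a larger part of the covered length was left in the Pax windows than in the lists as a whole. In the 9 windows GSK343 peaks lay where DMSO peaks were. Only 231 bp, at Pax2 in mutant cells, had a GSK343 peak and no DMSO peak in that genotype. The same length over all windows is not given here, so this is not read as a trait of the Pax windows.

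The members differed widely in what they kept. In WT cells the kept share was 79.7% at Pax9, 69.3% at Pax6, 53.3% at Pax1, 45.9% at Pax3, 42.2% at Pax2, 41.6% at Pax7, 22.0% at Pax8, 9.36% at Pax5 and 0% at Pax4. In mutant cells it was 60.7% at Pax6, 47.5% at Pax3, 41.6% at Pax1, 38.1% at Pax9, 35.0% at Pax5, 32.4% at Pax7, 28.4% at Pax2, 9.58% at Pax8 and 5.22% at Pax4. Pax6 was first or second in both genotypes, and Pax4 last. Pax9 was first in WT cells, and in mutant cells it came after Pax6, Pax3 and Pax1. The median over protein-coding genes with at least 10% of the window covered under DMSO was 25.4% in WT and 9.66% in mutant cells. Pax8 and Pax4 lay below it in both genotypes, although Pax4 itself did not reach 10% in WT.

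The kept share of Pax5 rests on the small 3′ peaks alone, 0.489 of 5.22 kb in WT and 1.54 of 4.39 kb in mutant cells. The lists do not reach down to the same p-value. The smallest −log10 p-value was 3.47 in WT GSK343 and 3.60 in mutant GSK343, and 12 of the 47 DMSO peaks in the Pax windows of WT cells and 22 of 49 in mutant cells lay below it. Over the whole DMSO lists 35.7% of peaks in WT and 54.2% in mutant cells lay below it. The Pax peaks below it made up 2.13% and 4.80% of the summed width of the DMSO peaks in the Pax windows. Without them GSK343 peaks covered 0.471 of the DMSO length in WT and 0.347 in mutant cells. The ratios over the whole lists were not computed without such peaks.

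The long DMSO peaks were replaced by several short ones. The WT peak of 51.7 kb at Pax2 held 11 GSK343 peaks, the longest 7.52 kb, over 62.3% of its length. The mutant peak of 62.0 kb held 13, the longest 10.2 kb, over 52.7%. At Pax6 the peak of 43.1 kb held 5 in WT cells, and that of 42.7 kb held 11 in mutant cells.

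Among the 7 members whose widest DMSO peak was at least 10 kb long, all but Pax4 and Pax5, Pax9 was the least divided in WT cells, with 2 GSK343 peaks over 82.6% of a 16.2 kb peak, whereas in mutant cells 6 covered 39.0% of a 25.7 kb peak. The median covered part over the 7 was 62.3% in WT, against 43.8% for all 1251 WT DMSO peaks of that length. In mutant cells it was 49.7%, against 18.1% for 2524 peaks. The median number of GSK343 peaks in them was 5 in WT and 7 in mutant cells, against 2 in each genotype over all such peaks. These comparisons were not matched for length. The 7 peaks were 16.2 to 51.7 kb long in WT and 16.6 to 62.0 kb in mutant cells. A longer peak has room for more GSK343 peaks, so the numbers do not set the Pax peaks apart.

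**Figure D3:**
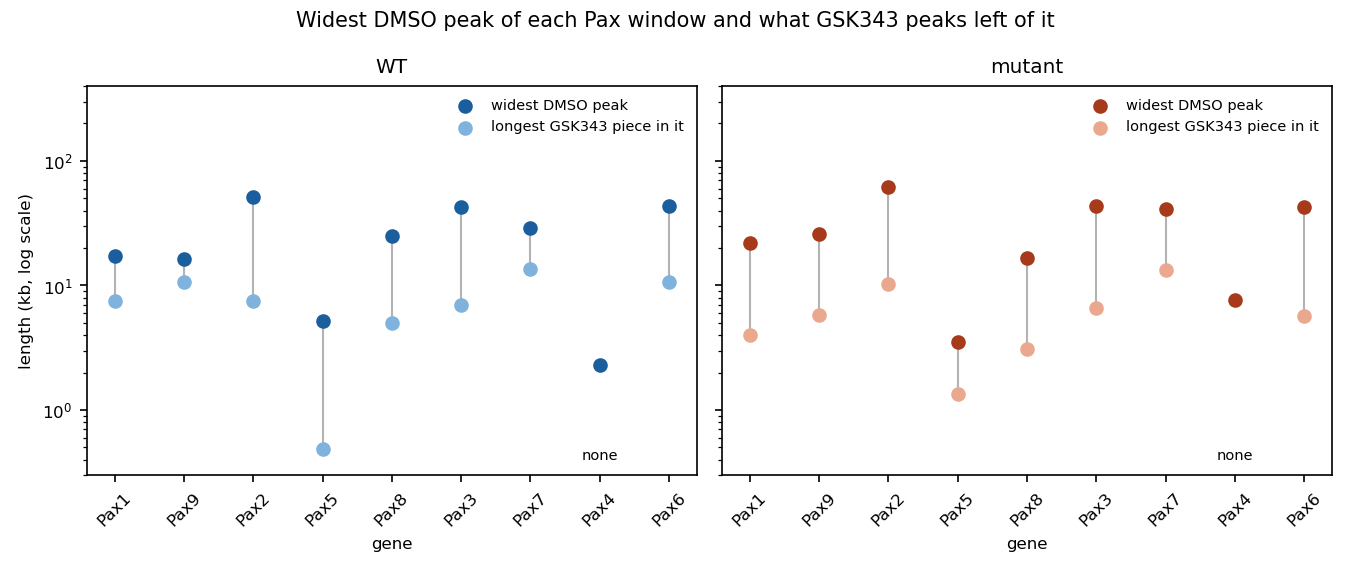
Width of the widest DMSO peak that reaches into each Pax window and length of the longest GSK343 piece inside it (kb, log axis), for WT (left) and mutant (right) cells. The gap is smallest at Pax9 in WT cells, from 16.2 to 10.6 kb, and no GSK343 peak lies in the widest DMSO peak of Pax4.

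The kept share was larger close to start sites than in the rest of the window, a pattern chosen for description after the peak positions were seen. Within 5 kb of a listed start, all bases of Pax1, Pax2, Pax6, Pax7, Pax8 and Pax9 were under DMSO peaks in both genotypes. Of these bases 79.7% were kept in WT and 71.6% in mutant cells, summed over the genes with a listed start, against 34.7% and 21.0% of the DMSO-covered bases in the rest of the windows. The kept share was larger near the start for 6 of these 6 genes in both genotypes. The same direction was found for 93.4% of the 351 protein-coding genes whose near part was covered in full in WT DMSO and for 89.3% of 633 in mutant DMSO. All protein-coding genes with DMSO-covered bases both near and elsewhere were also counted. Of these, 49.0% of 4978 in WT and 40.7% of 6141 in mutant cells had a larger kept share near the start. A gene that kept nothing in either part counts against the pattern here. The median kept share over the 4978 genes in WT was 17.2% near and 5.12% elsewhere. Over the 6141 genes in mutant cells it was 0% in both parts. Summed over all their bases, 39.6% was kept near and 22.9% elsewhere in WT, and 25.7% and 11.4% in mutant cells.

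The size of the contrast varied. At Pax7 in mutant cells 89.3% was kept near the start and 25.2% elsewhere, and at Pax2 80.1% and 17.5%. At Pax8 the near values were the lowest, 55.1% in WT and 33.1% in mutant cells, with 5.75% and 2.21% kept elsewhere. At Pax6, which has 2 listed starts in a short gene, 54.4% in WT and 48.7% in mutant cells were kept outside the near part. Over the protein-coding genes whose near part was covered in full under DMSO, the medians were 67.8% near and 26.8% elsewhere in WT. In mutant cells they were 45.7% and 7.56%. Pax8 alone of the 6 lay under the near median in both genotypes. In WT cells its order depended on 1 weak peak: with a fold of at least 3 the count was 5 of 6, as it was with a q-value of at most 0.01.

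**Figure D4:**
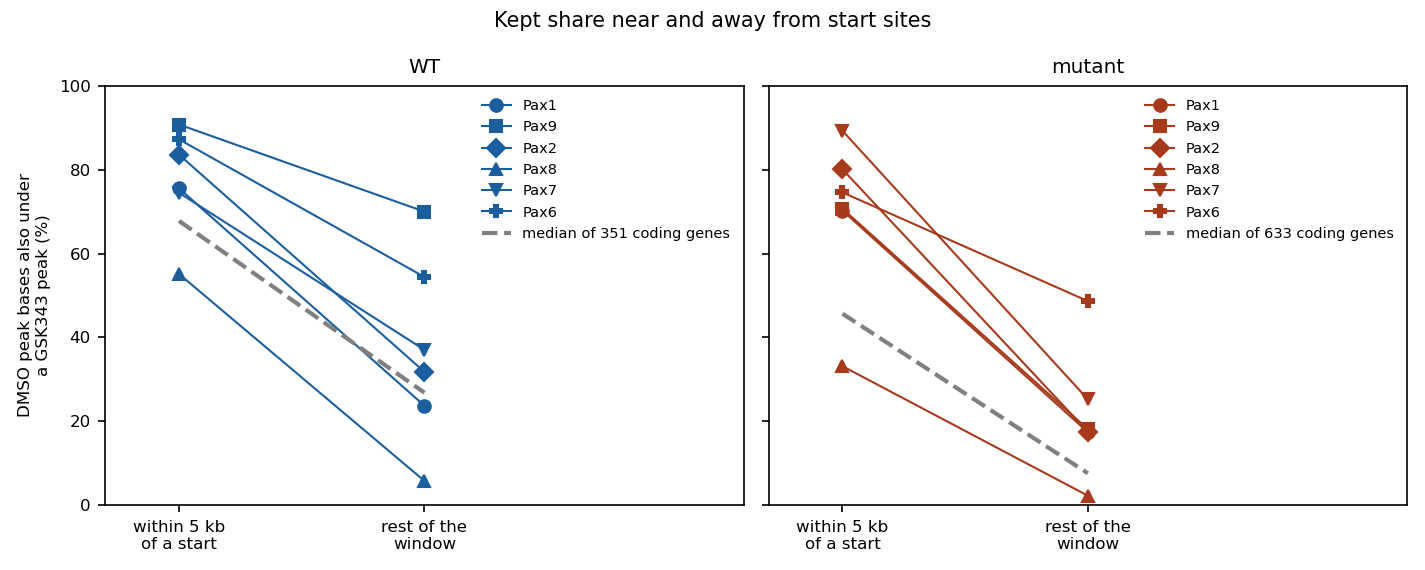
Share of DMSO-covered bases that also lay under a GSK343 peak (percent), within 5 kb of a listed start site and in the rest of the window, for 6 Pax genes in WT (left) and mutant (right) cells; the dashed line joins the medians over 351 and 633 protein-coding genes covered in full near the start. Every line slopes down, and Pax8 is the lowest in each panel.

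The mutant was then set beside WT within each treatment. Under DMSO the covered share was higher in mutant than in WT cells at 7 of 9 Pax windows, all but Pax5 and Pax6. Of all protein-coding genes with a peak in either list, 89.8% were higher in the mutant, whose list covered 134 Mb against 84.3 Mb in WT. Under GSK343 it was higher in the mutant at 3 of 9, Pax3, Pax4 and Pax5, where 31.3% of all genes were. The members thus followed the lists as a whole in both treatments. At 5 of 9 genes, Pax1, Pax2, Pax7, Pax8 and Pax9, the share was higher in the mutant under DMSO and lower under GSK343, as at 38.0% of genes with a peak in any list. Pax5 had the opposite order, as 1.25% of those genes did, on shares below 3%. The direction at Pax8 turned with a fold of at least 3, to 26.1% in WT and 18.6% in mutant cells under DMSO and to 0.928% and 3.26% under GSK343. At Pax7 it turned under DMSO when each list was held to the same number of top peaks, to 58.5% in WT and 53.6% in mutant cells. At Pax3 it turned under GSK343 with that fold, to 13.8% in WT and 8.09% in mutant cells. Read depth is unknown from the peak lists, and its part in these differences was not tested.

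The positions of the peaks were shared to a large extent. Of the bases covered in WT DMSO in the 9 windows, 95.7% were also covered in mutant DMSO, against 86.9% over the whole lists. In the other direction 81.6% of the mutant bases were covered in WT, against 54.5% over the whole lists. Pax4 was the exception, with 18.6% of its mutant DMSO bases covered in WT DMSO. Under GSK343, 68.0% of the WT bases in the Pax windows were covered in mutant cells and 80.8% of the mutant bases in WT cells, against 59.2% and 73.5% over the whole lists.

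The transcription factor genes Six2, Six3, Six4, Six5 and Six6 and the Eya and Dach families, which act with Pax proteins in eye, ear, muscle and kidney, separated by family. Each of the 5 factor genes had at least 9% of the window covered in each of the 4 lists, from 37.5% at Six4 to 97.5% at Six5 in WT DMSO. The 4 Eya and 2 Dach genes, which encode partner proteins of these factors and are 85.7 kb to 539 kb long, had at most 2.97% in WT DMSO, at Eya2, and 3.88% in mutant DMSO, at Eya1. A peak was found in the window of 10 of these 11 genes under DMSO and 8 under GSK343 in WT cells, and of 11 and 8 in mutant cells, against 59.6% and 37.3% of all windows in WT and 64.8% and 34.1% in mutant cells. Their median share was 2.97% under DMSO and 0.915% under GSK343 in WT cells, and 3.88% and 0.900% in mutant cells. As in the Pax family, shares near 0 and shares above 70% stood side by side.

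Of 12 genes that Pax5 is known to activate in B cells, 5 had a peak in the window under DMSO and 2 under GSK343 in WT cells, where 59.6% and 37.3% of all windows did. In mutant cells it was 6 and 2, where 64.8% and 34.1% did, with a median share of 0.187% in mutant DMSO and 0% in the other lists. Blnk, the adaptor of the B cell receptor, and Ebf1, the partner of Pax5 in lineage commitment, had a share of 0% in all 4 lists. The most covered was Id3, an inhibitor of E proteins, with 11.7% under DMSO and 6.73% under GSK343 in WT cells, and 16.3% and 5.71% in mutant cells. Lef1, a transcription factor of early B cells and T cells, had 8.82% in WT DMSO and 10.5% in mutant DMSO.

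Of 10 genes that Pax5 is known to repress, 6 had a peak in the window under DMSO and 3 under GSK343 in WT cells, and 7 and 2 in mutant cells. The median shares were 2.85% and 0% in WT cells, and 5.28% and 0% in mutant cells. The most covered were Flt3, the cytokine receptor of progenitors, with 16.4% under DMSO and 8.98% under GSK343 in WT cells, and Prdm1, the plasma cell regulator, with 12.8% and 3.86%. Cd28, a T cell co-stimulatory receptor, and Xbp1, a factor of secretory cells, had a share of 0% in all 4 lists. Among all protein-coding genes the medians under DMSO were 1.45% in WT and 3.25% in mutant cells, and 59.6% and 64.8% of windows had a peak. The count of repressed genes with a peak under DMSO was thus near the background. Under GSK343 37.3% of all windows had a peak in WT and 34.1% in mutant cells, beside the counts of 3 and 2 of 10.

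The labelled cell type was set against marker genes. Of 5 B cell markers, 1 (Cd79a) had a peak in its window under DMSO and none under GSK343, in both genotypes. Under GSK343 37.3% of all windows had a peak in WT and 34.1% in mutant cells. All of 6 T cell markers had a peak under DMSO in both genotypes, with a median share of 32.5% in WT and 39.7% in mutant cells. In WT DMSO the shares ran from 1.85% at Cd8a to 41.3% at Cd4. The median fell between Cd3g (24.8%) and Cd3d (40.1%). Windows of neighbouring genes can share a peak. Overlap among the windows of Cd3e, Cd3d and Cd3g was not examined, so the 6 markers may not stand for 6 separate loci. Only 4 of the 6 had a peak over the gene body under DMSO, and Cd3d and Cd8a had none. Of 6 myeloid markers, 3 had a peak in WT DMSO and 4 in mutant DMSO. Among all protein-coding genes 59.6% of windows had one in WT DMSO and 64.8% in mutant DMSO, with median shares of 1.45% and 3.25%, so the myeloid count was near the background. None of the 5 B cell markers had a peak over the gene body in any list, as was the case for Pax5. Most protein-coding genes had none there either. A body peak was found for 31.8% of them in WT DMSO, 34.6% in mutant DMSO, 21.4% in WT GSK343 and 20.3% in mutant GSK343.

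Genes with a covered share most like that of each member in the 4 lists were sought among genes outside the family whose body length was within 1.5 times of its own. The measure was the Euclidean distance over the 4 shares, in percentage points. For Pax5 these were Asap2, Lypd6 and Atxn7l1, at distances of 0.377, 0.408 and 0.588 among 1219 candidates. For Pax2 they were Gata4, Lifr and Dmrt1, at 8.52, 8.92 and 17.7 among 2468. Pax3 was closest to Nrxn2, Tbx5 and Ebf3 (3.36, 5.00 and 6.00), and Pax4 to the serine protease genes Prss42, Prss30 and Prss22 (6.13, 6.79 and 7.70). Pax6 was closest to Celf5, Kash5 and Rsph6a (4.78, 5.76 and 6.62). Small distances are easily reached where all shares are near 0, as at Pax5, so the distances do not rank the members.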

How the data were processed

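H3K27me3 ChIP-seq of 4 combinations of genotype and treatment, with 2 ChIP and 2 input samples each, was analysed as 4 deposited lists of broad peaks. The submitters' processing notes name bcl2fastq, Bowtie2 2.4.2, SAMtools 1.12, MACS2 2.2.7.1, bedtools 2.29.2, deepTools 3.5.1 and the build mm10, with no role or order, and the settings are not given in the sources used here. Lists were assigned to groups by the start of the peak names, and a folder in those names refers to pooled duplicates. The mutant names begin with a tag that ends in 1, so it is uncertain whether both replicates entered. Peaks overlapping a blacklist had been removed, per the file names. The fold of each peak is the authors' deposited linear ratio over background. The −log10 of the p-value and of the q-value per peak are as deposited, and the deposited score, which repeats the q-value, was not used. No read counts were used, so the depth of the samples is unknown and no confidence interval is given.

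Gene bodies came from a RefSeq table of GRCm38.p6, the assembly that mm10 names, and start sites and sequences from a RefSeq promoter table of that build, which gives no entry for Pax3 and Pax4. Covered bases were summed over merged peaks with Python 3.11.15, numpy 2.4.6 and pandas 2.3.3, and plots were drawn with matplotlib 3.10.9. The code was tested on simulated data, where 200 of 200 windows had the known value, and checked against bedtools 2.31.1 on the Pax windows, with 36 of 36 values equal. A window counted as having a peak from 1 bp of overlap. Background values are the same measures over all protein-coding genes of chromosomes 1 to 19 and X. With 1 list per group no test was made.

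The members and gene lists were chosen with earlier results of these data known. The genes named were the 9 Pax genes, the most and least covered members of each list, the genes in the Pax windows, the widest peaks, and the 3 genes nearest in covered share to each member. The nearest genes of Pax1, Pax7, Pax8 and Pax9 were computed but are not named, and some members of the gene lists are not reported here and were left out of the lists' counts. The alternatives were other windows, peak thresholds, numbers of peaks and peak widths.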

Additional observations from a re-analysis of the deposited data

Results flagged for a closer look

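At 6 Pax genes the mutant minus WT difference in covered share of the window had opposite signs under DMSO and under GSK343. With 1 list per group these changes of sign could not be tested and were not tested. At Pax1 the difference was 8.13 percentage points under DMSO and -0.48 under GSK343. At Pax2 it was 11.42 and -7.14, at Pax7 4.90 and -3.96, at Pax8 12.25 and -2.80, and at Pax9 7.97 and -11.53, in the same order. These 5 genes were higher in the mutant under DMSO and lower under GSK343, as were 38.0% of the 14365 protein-coding genes with a peak in any list. At Pax5 the difference was -0.37 under DMSO and 0.46 under GSK343, the opposite order, which 1.25% of those genes had, and it rests on peaks past the 3′ end that cover a small part of the window. The sign at Pax8 turned under both treatments with a fold of at least 3, to -7.43 under DMSO and 2.33 under GSK343. It held at Pax9 under both treatments in all 7 other settings tried.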

How the results depend on the processing

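Of 11 alternative settings, 7 were planned and 4 were chosen after seeing the data (only peaks whose −log10 p-value reached 5, DMSO peaks down to the smallest −log10 p-value of the GSK343 list, and near distances of 2.5 kb and 10 kb). Among the 18 summary results a reversal was defined only for the ratio of GSK343 to DMSO covered length, as a move across 1. It occurred in neither genotype. The alternative settings gave 136 values for the 18 results, of which 119 stayed within 1.5 times the reported value and 17 moved further. Their use for the counts of genes with a larger kept share near a start or with a higher share in the mutant, and for the differences between genotypes, was also chosen after seeing the data. For the covered shares of single windows other than Pax5, 169 of 224 values stayed within 1.5 times and 55 moved further. A reversal was not defined for these shares. The ratio of GSK343 to DMSO covered length stayed between 0.391 and 0.512 in WT and between 0.286 and 0.385 in mutant cells. The covered share of Pax5 became 0% in the 4 lists with the gene body alone. With 50 kb on each side it was 4.60% in WT DMSO and 5.73% in mutant DMSO. In WT GSK343 it became 0% with a q-value of at most 0.01, a fold of at least 3, peaks of at least 1 kb and a −log10 p-value from 5 upward, and in mutant GSK343 with that fold and that p-value. The median share of the other 8 windows was 58.6% in WT DMSO and 68.1% in mutant DMSO with the gene body alone, 12.5% in WT GSK343 and 10.0% in mutant GSK343 with 50 kb on each side, and 14.1% in WT GSK343 with −log10 p-values from 5 upward. Of 126 values of the mutant minus WT difference of single windows, 16 had the opposite sign of the one reported and 7 were 0. With −log10 p-values from 5 upward the difference in percentage points was 2.53 at Pax2, -4.03 at Pax3, 0.876 at Pax7 and 2.33 at Pax8 under GSK343, and -8.41 at Pax8 under DMSO. A fold of 3 or more gave -5.74 at Pax3 and 2.33 at Pax8 under GSK343, and -7.43 at Pax8 under DMSO. With a q-value of at most 0.01 it was -4.91 at Pax3 and 2.33 at Pax8 under GSK343. With equal numbers of top peaks it was -4.92 at Pax7 and -8.41 at Pax8 under DMSO. With the body alone it was 0.186 at Pax6 under DMSO and 0.0999 at Pax8 under GSK343, with 50 kb flanks 1.125 at Pax5 under DMSO, and with peaks of at least 1 kb 0.0847 at Pax1 under GSK343. A window or filter that leaves out the 3′ peaks fixes the 0% at Pax5; the cause of the other changes was not tested. No paired analysis was possible because only 1 list stands for each group, which also left no replicate to leave out.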
